A study of Homo sapiens with 18 samples.

Results

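QKI footprints that were reproducible before differentiation and again in beating cardiomyocytes, but were missing from the list of the stage between them, are described here across 9 immunoprecipitation (IP) libraries. A footprint is a stretch of RNA on 1 strand of hg19 that was made by joining overlapping or touching peaks of the 3 lists the authors deposited, 1 per day. Of 7018 footprints, 335 held a peak of the day 0 list and a peak of the day 8 list and no peak of the day 4 list. Those 335 footprints were chosen from measured values, so their presence at days 0 and 8 and their absence from the day 4 list are not findings. The other footprints were 5564 on the day 0 list alone, 412 on the day 8 list alone, 62 on the day 4 list alone, 196 on the lists of days 0 and 4, 48 on those of days 4 and 8, and 401 on all 3.

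The series holds 18 eCLIP samples of the human embryonic stem cell line HUES6, with 3 IP libraries and 3 inputs at each of days 0, 4 and 8 of cardiomyocyte differentiation. In eCLIP, ultraviolet light links a protein to the RNA it touches, the protein is pulled down with an antibody, here against QKI, and the RNA left on it is sequenced beside an input. Day 0 cells were pluripotent and untreated. Day 4 cells, which the labels call cardiac progenitors, had received the GSK3 inhibitor CHIR at 1.5 uM and BMP4 at 1.5 ng/mL at plating and then the Wnt secretion inhibitor C59 at 100 nM. Day 8 cells came from the same treatment with a further addition of C59 and were crosslinked once beating was seen at day 7 or 8. All groups were 1 cell line, all were crosslinked at 400 mJ/cm2, and no genotype differed between them. Whether replicate libraries stem from separate cultures is not in the labels, and their spread may be technical. RNA levels were not measured, so fewer cells with a transcript, less of that transcript and less QKI on it cannot be told apart. For the same reason the stage of the cells could not be checked against expression of marker genes.

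QKI belongs to the STAR family of RNA-binding proteins. It binds RNA through its KH domain at the short motif ACUAA and a shorter element near it, and it is known for regulating alternative splicing, RNA stability and the formation of circular RNAs. In heart and other muscle it is known for its part in splicing transcripts of the sarcomere, the cytoskeleton and calcium handling.

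The authors listed clusters for each IP library with a log2 fold of IP over input and a −log10 p of that enrichment. A cluster is called passing here where its log2 fold was at least 2 (4-fold) and its p at or below 0.001. The 3 day 0 libraries listed 102085 to 187962 clusters and 12695 to 15508 passing ones, the day 4 libraries 63319 to 99552 and 3030 to 7775, and the day 8 libraries 52462 to 62897 and 3726 to 10966. The merged list of day 4, with 947 peaks, was shorter than those of day 0 (7778) and day 8 (1576). Day 4 replicate 1 had the fewest passing clusters of the 9 libraries, 3030. It listed 63319 clusters in all, more than any day 8 library. Depth per library is unknown. All folds below are the authors' values and describe or rank footprints within a list or library; a difference in fold between days is not read as a change.

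Most of the 335 footprints had QKI signal at day 4 in the libraries taken singly. A passing cluster overlapped 290 of them in at least 1 day 4 library (86.6%, Wilson 95% interval 82.5 to 89.8, which covers counting error only). Among all 6311 footprints without a day 4 list peak, 48.9% did so. Of the 290, 67 passed in replicate 2 alone, and without replicate 2, 223 of the 335 (66.6%) passed in at least 1 library. With equal numbers of the strongest peaks from each library, 232 of the 335 (69.3%) did, a setting not counted over the 6311. In 3 of 3 day 4 libraries, 68 of the 335 passed (20.3%), against 4.55% of those 6311. In 2 libraries 141 passed, in 1 library 81, and in none 45. Of these 45, 29 had a cluster below a threshold and 16 had no listed cluster in any day 4 library. Those 16 are 4.78% of the 335, against 24.9% of the 6311. Absence from the day 4 list was therefore, for most of the 335, not absence of an enriched cluster from the day 4 libraries.

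The 3 day 4 libraries differed widely in how many of the footprints they held. In replicate 1, 86 passed (25.7%), 102 were enriched at least 4-fold with p above 0.001, 24 lay under 4-fold and 123 had no cluster. In replicate 2, 272 passed (81.2%), 23 had too weak a p, 3 a low fold and 37 no cluster. In replicate 3, 209 passed (62.4%), 67 had too weak a p, 12 a low fold and 47 no cluster. The mean share over the 3 libraries was 56.4% ± 28.2 (SD, n = 3). At day 0, 335, 331 and 332 of the footprints passed in the 3 libraries, and at day 8, 334, 331 and 335. Replicate 1 decided how many passed in every day 4 library: 127 footprints passed in replicates 2 and 3 but not in 1, and without replicate 1, 195 (58.2%) passed in all that were left. It was also the library with the fewest passing clusters. The part of that number in these shares was not tested.

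**Figure D1:**
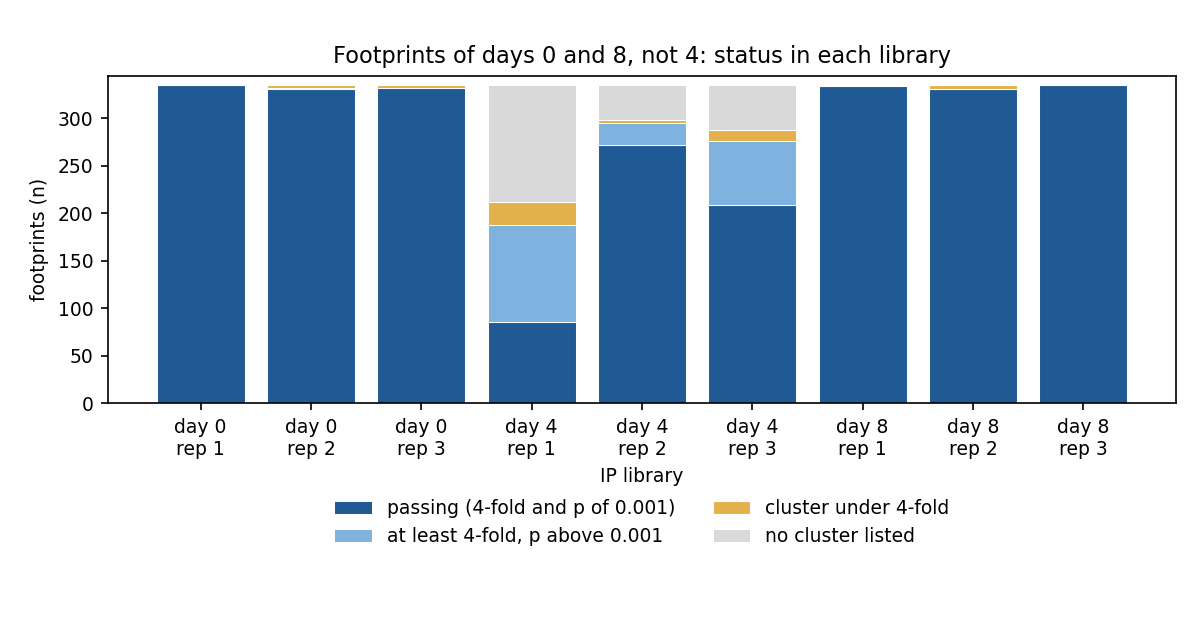
Status of the 335 footprints in each of the 9 IP libraries. Bars show numbers of footprints, split into passing, enriched with too weak a p, under 4-fold, and without a listed cluster. The day 0 and day 8 bars are nearly all passing, whereas at day 4 replicate 1 has 86 passing and 123 without a cluster, replicate 2 has 272 and 37, and replicate 3 has 209 and 47.

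Footprints of other classes can be set beside the 335 at a day whose list lacks them. Of the 196 footprints on the lists of days 0 and 4 but not 8, 92.3% passed in at least 1 day 8 library, 34.2% in all 3, and 2.55% had no day 8 cluster. Of the 48 on the lists of days 4 and 8 but not 0, 45.8% passed in at least 1 day 0 library, 2.08% in all 3, and 27.1% had no day 0 cluster. Of the 5564 on the day 0 list alone, 46.8% passed in at least 1 day 4 library, 3.68% in all 3, and 25.4% had no day 4 cluster. Of the 62 on the day 4 list alone, 87.1% passed in at least 1 day 8 library, 14.5% in all 3, and 3.23% had no day 8 cluster. At day 0 these shares were 58.1%, 0.0% and 19.4%. The 335 footprints were thus nearer to the classes of days 0 and 4 and of day 4 alone, both taken at day 8, than to the others given here. These shares were not tested because list membership used the same libraries.

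**Figure D2:**
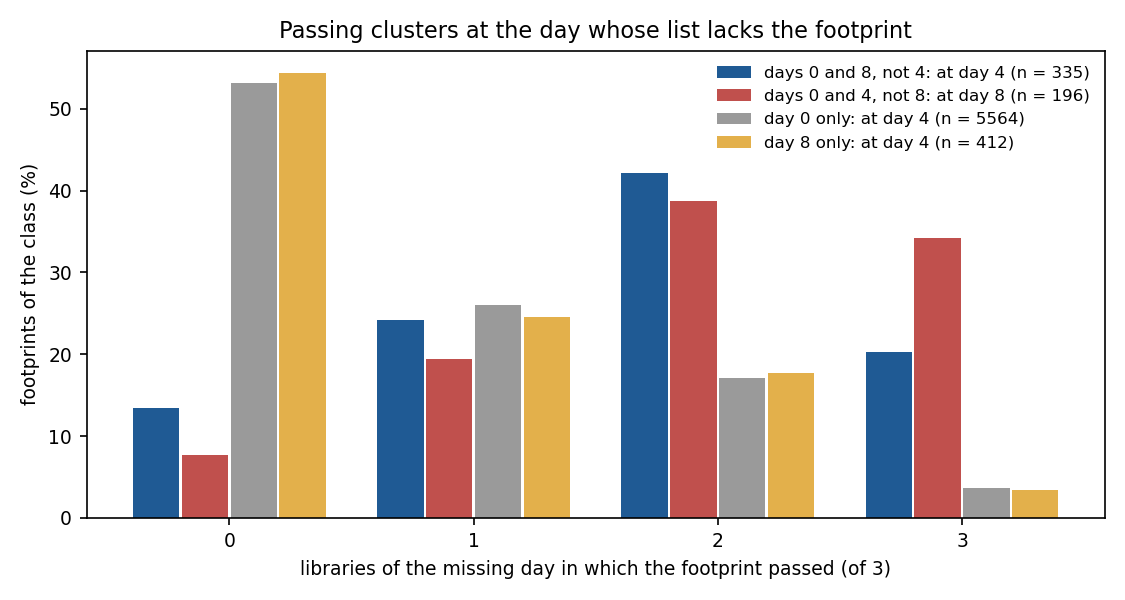
Share of footprints in 4 classes (y axis, percent of the class) by the number of libraries of a missing day in which they passed (x axis, 0 to 3). Of the footprints on the lists of days 0 and 8 but not 4, 13.4% passed in 0 day 4 libraries, 24.2% in 1, 42.1% in 2 and 20.3% in 3, whereas 53.2% of those on the day 0 list alone passed in 0.

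Each day 4 library held a larger share of the 335 footprints than of the footprints on the day 0 list alone, although neither class has a day 4 list peak. In replicate 1 the shares passing were 25.7% and 6.74%, in replicate 2 81.2% and 41.9%, and in replicate 3 62.4% and 22.6%. The difference was 32.6 percentage points ± 11.9 (SD, n = 3 libraries) and was positive in 3 of 3 libraries; it is a description with no test, since the lists that define both classes used these libraries. The day 0 list folds of the 335 were higher, with a median log2 fold of 5.10 against 4.41. With the day 0 footprints weighted to the same day 0 folds in 5 bins, the difference was 27.6 points. In the lowest of those bins 11.9%, 71.6% and 50.7% of the 335 passed in replicates 1, 2 and 3, against 4.35%, 32.1% and 13.2% of the day 0 footprints. In the highest bin the shares were 35.8%, 88.1% and 74.6%, against 19.8%, 57.5% and 46.5%. The difference held its sign in every bin of every library.

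**Figure D3:**
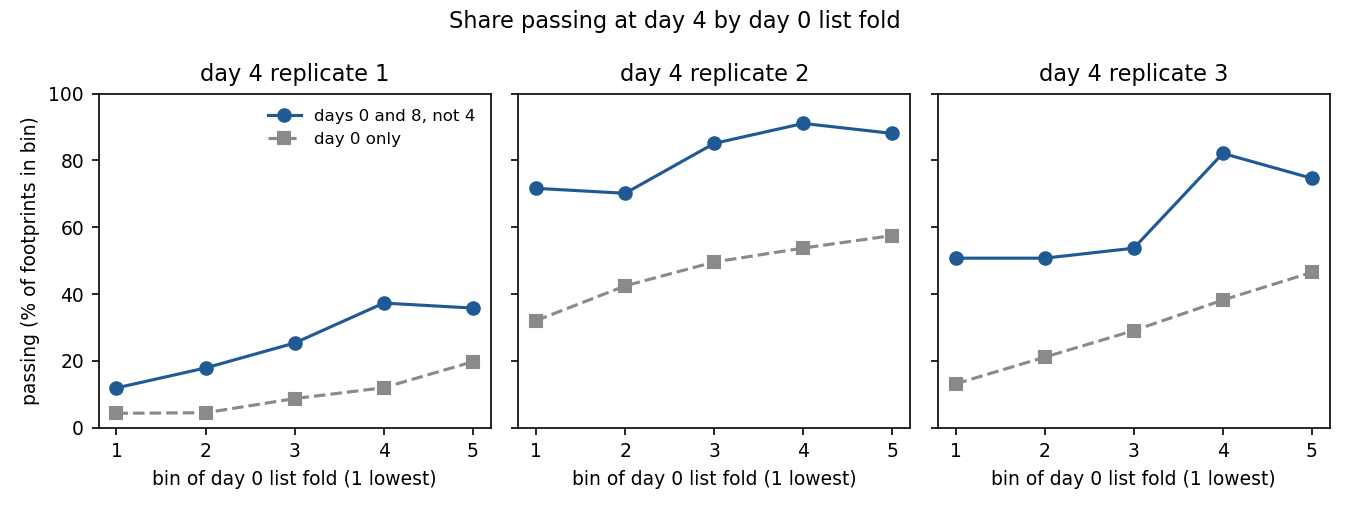
Share of footprints passing in each day 4 library (y axis, percent) by bin of their log2 fold on the day 0 list (x axis, 5 bins with 67 of the 335 footprints each, bin 1 lowest). In each bin and library the footprints of days 0 and 8 (solid line) lie above those of the day 0 list alone (dashed line); in replicate 2 they run from 71.6% in bin 1 to 88.1% in bin 5, against 32.1% to 57.5%.

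Among the 335, footprints that passed in more day 4 libraries had higher day 0 list folds, while their day 8 folds varied less. The median day 0 list fold (log2) was 4.44 for the 45 that passed in no day 4 library, 4.70 for the 81 that passed in 1, 5.45 for the 141 that passed in 2 and 5.65 for the 68 that passed in 3. The median day 8 list fold in the same order was 4.67, 4.99, 5.09 and 5.04. The 335 lay between the other classes in list fold and width: the median day 0 fold was 6.08 for footprints on all 3 lists, and the median width was 102 nt (range 12 to 377), against 111 nt for those and 78 nt for the day 0 list alone. On the plus strand lay 193 and on the minus strand 142, and chromosomes 2, 3, 7, 4 and 1 held the most, with 28, 27, 24, 23 and 22.

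The 68 footprints that passed in all 3 day 4 libraries did so by less than those on the day 4 list. Their lowest −log10 p of the 3 libraries had a median of 3.59 (quartiles 3.04 and 4.15), where 3 is the threshold. The 387 footprints of all 3 lists that passed in 3 of 3 had a median of 8.94 (quartiles 5.94 and 17.2). The corresponding medians of the lowest log2 fold were 3.64 and 4.37. The day 4 list was built from these libraries, so this describes how near the footprints came to it and has no test.

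The footprints with the least day 4 signal are taken by gene, proteins of the Z-disc and adhesions before those of calcium handling. SORBS2, an adaptor protein of the Z-disc and actin fibres, held the most footprints of any locus, where a locus joins footprints within 20 kb on a strand. Its 7 footprints on chromosome 4, minus strand, carried no day 4 list peak among them, and 4 of the 7 had no cluster in any day 4 library. The strongest of those, at chr4:186571407-186571641, had log2 folds of 6.41, 5.79 and 5.93 in the day 0 libraries and 5.82, 5.36 and 5.14 in the day 8 libraries, in the order of replicates 1 to 3. It was listed in no day 4 library.

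The other SORBS2 footprints without a day 4 cluster were weaker on the days that had them: their log2 folds ran from 2.77 to 4.87 at day 0 and from 2.32 to 5.01 at day 8. Those at chr4:186598474-186598601 and chr4:186598648-186598736 lay 46 nt apart, and joining list peaks within 50 nt would make them 1 footprint. Only the footprint at chr4:186586354-186586539 passed at day 4, in 1 library. Its log2 folds were 5.16, 5.99 and 6.55 at day 0, none, 4.31 and 3.76 at day 4, and 7.00, 7.15 and 7.01 at day 8. Its day 4 −log10 p was 3.05 in replicate 2, just past the threshold, and 2.18 in replicate 3. The remaining pair, at chr4:186584207-186584370 and chr4:186587425-186587547, each had 1 day 4 cluster, in replicate 3, with log2 folds of 3.44 and 3.02 and −log10 p of 1.69 and 1.21.

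Passing peaks were also few at day 4 when counted over the whole SORBS2 locus. As in all locus counts below, peaks on the chosen footprints are included, so the contrast is partly fixed by the choice. The locus also holds 5 footprints of the day 8 list alone. Passing peaks in it numbered 13, 15 and 12 in the day 0 libraries, 0, 1 and 0 in the day 4 libraries and 26, 22 and 29 in the day 8 libraries. Scaling per 10000 passing peaks divides by the unequal total of each library, so scaled values also move with that total. At day 8, with totals of 6320, 3726 and 10966, it widened the spread between libraries. The scaled values were 8.38, 11.8 and 9.18 at day 0, 0.00, 1.29 and 0.00 at day 4, and 41.1, 59 and 26.4 at day 8. The means were 9.79 ± 1.80, 0.43 ± 0.74 and 42.2 ± 16.3 (SD, n = 3 each). The day 4 libraries lay below all others on either scale, and the day 8 libraries above all others.

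PDLIM5, a PDZ and LIM domain protein of the Z-disc, showed how unequal footprints of 1 transcript were. At chr4:95449168-95449277 no day 4 cluster was listed, with log2 folds of 5.28, 3.29 and 3.44 at day 0 and 3.61, 3.19 and 3.91 at day 8. At chr4:95419692-95419806 all 3 day 4 libraries passed, with 4.29, 5.81 and 5.14, beside 6.23, 4.66 and 5.93 at day 0 and 8.48, 6.25 and 7.93 at day 8. Of the 5 PDLIM5 footprints, 2 passed in no day 4 library, 2 in 2 and 1 in 3.

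VCL (vinculin, which links integrin adhesions to actin) gave the closest such contrast, between neighbouring footprints. That at chr10:75872694-75872784 had no day 4 cluster, with log2 folds of 5.05, 4.05 and 4.41 at day 0 and 3.86, 4.55 and 4.58 at day 8. The footprint next to it, at chr10:75872590-75872685, passed in 3 of 3 day 4 libraries with 3.61, 5.42 and 3.61, and had 5.05, 4.25 and 4.91 at day 0 and 4.23, 4.46 and 5.39 at day 8. The pair lay 8 nt apart, and joining list peaks within 20 nt would make them 1 footprint. Where clusters within 50 nt count as well, the first passed in 3 of 3 day 4 libraries too. The contrast thus rests on that gap. MACF1, which crosslinks actin and microtubules, held 4 of the footprints, and the one at chr1:39794157-39794233 had no day 4 cluster, with 5.13, 4.02 and 3.93 at day 0 and 4.86, 3.25 and 5.23 at day 8. Its neighbour 15 nt away, at chr1:39794249-39794342, had 1 day 4 cluster, of log2 fold 1.72 in replicate 2, and the other 2 MACF1 footprints passed in replicates 2 and 3. Joining within 20 nt would make this pair 1 footprint as well.

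RYR2 encodes the calcium release channel of the sarcoplasmic reticulum and held 2 of the footprints, neither passing at day 4. That at chr1:237953694-237953810 had log2 folds of 5.57, 3.87 and 5.03 at day 0 and 5.52, 5.06 and 4.69 at day 8, and no day 4 cluster; it passed in 2 of 3 day 0 libraries and is named although it lies outside the naming rule. That at chr1:237889667-237889862 had 4.32, 4.40 and 5.21 at day 0, 2.29, 3.31 and 3.76 at day 4 with p too weak in each, and 5.33, 4.55 and 6.33 at day 8.

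ATP2A2, which encodes the SERCA2 calcium pump that refills the reticulum, held 3 of the footprints. The strongest, at chr12:110785451-110785719, had log2 folds of 6.45, 4.07 and 5.21 at day 0, 2.70, 5.63 and 2.44 at day 4, and 6.42, 4.96 and 6.46 at day 8. It passed in day 4 replicate 2 alone, and the other 2 ATP2A2 footprints passed in no day 4 library. The locus held 7.09, 7.88 and 6.12 passing peaks per 10000 at day 0, 3.30, 2.57 and 2.5 at day 4, and 23.7, 32.2 and 11.9 at day 8. As plain numbers they were 11, 10 and 8, then 1, 2 and 1, then 15, 12 and 13. The 3 days did not overlap per 10000, with day 4 lowest and day 8 highest. Each day 4 value rests on 1 or 2 peaks. Every day 4 library was below all others in 13.7% of the loci with these footprints, against 2.10% of all loci. The choice of footprints used this contrast, and ATP2A2 was detailed after its values were seen, so nothing is read from the order.

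**Figure D4:**
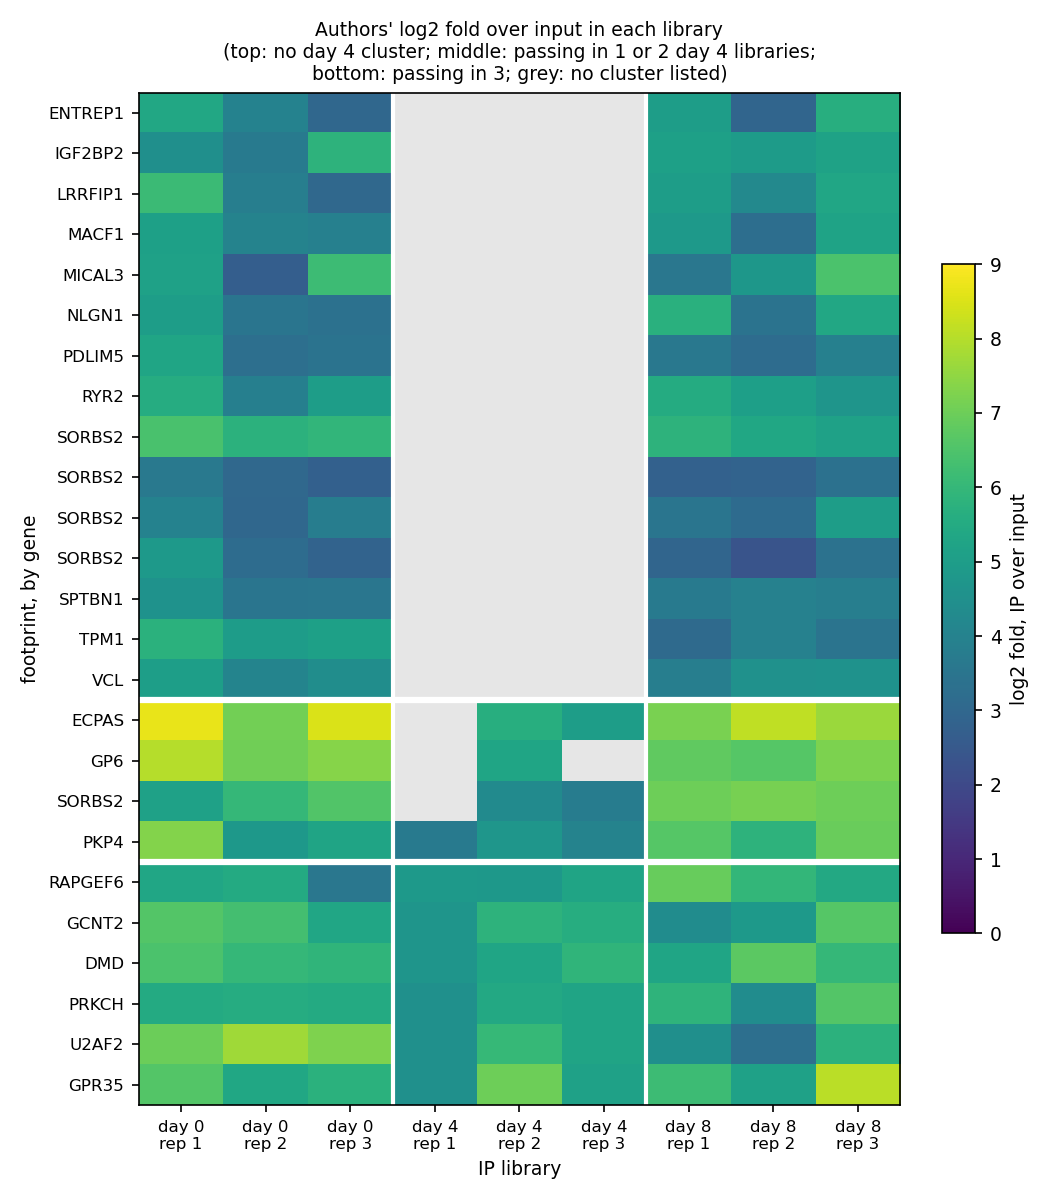
Authors' log2 fold of IP over input (colour scale 0 to 9) in each of the 9 IP libraries (columns) for single footprints (rows, labelled by gene). The top block is 15 of the 16 footprints with no cluster in any day 4 library, the middle block 4 that passed in 1 or 2 day 4 libraries, the bottom block 6 that passed in all 3; grey marks no listed cluster. All rows are filled at days 0 and 8, and SORBS2 gives 4 of the 15 rows of the top block.

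Of the 16 footprints without a day 4 cluster, others lay in SPTBN1, LRRFIP1, MICAL3, NLGN1, IGF2BP2, TPM1 and ENTREP1, with 1 each. IGF2BP2 (an mRNA-binding protein) had log2 folds of 4.47, 3.70 and 5.80 at day 0 and 5.13, 4.95 and 5.19 at day 8 at chr3:185479564-185479811. ENTREP1 had 5.41, 3.98 and 2.99 at day 0 and 5.01, 2.95 and 5.65 at day 8 at chr9:71967391-71967496. Its locus was the only one of the 256 loci of these footprints with no day 4 cluster of any fold, a count not made over all loci. LRRFIP1 had 6.13, 3.83 and 3.03 at day 0 and 5.0, 4.25 and 5.33 at day 8 at chr2:238660273-238660420. Fold within a day varied widely between libraries for some of these footprints: that of MICAL3, at chr22:18275710-18275807, had 5.16, 2.70 and 6.16 at day 0.

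An empty footprint did not mean an empty neighbourhood. With day 4 clusters within 50 nt counted, 13 of the 16 were still without one; VCL and IGF2BP2 then passed in 3 day 4 libraries and TPM1 in 2. The IGF2BP2 footprint lay 2 nt from a day 4 list peak at chr3:185479814-185479885, which had a log2 fold of 4.43 on that list. The TPM1 footprint (tropomyosin, of actin filaments) at chr15:63356088-63356147 lay 22 nt from a day 4 list peak at chr15:63356170-63356256 with a log2 fold of 4.14 and a −log10 p of 24.8. The LRRFIP1 footprint lay 83 nt from one, and the SPTBN1 footprint 195 nt. For these footprints the day 4 list held a peak beside the footprint and none on it, whereas every SORBS2 footprint lay over 20 kb from the nearest day 4 list peak.

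In all, 21 of the 335 footprints (6.27%) lay within 100 nt of a day 4 list peak, 47 (14.0%) within 1000 nt and 83 (24.8%) within 20000 nt. These shares were not counted for other footprints, so nearness is not read as a trait of the set. Of the 21, 3 had no day 4 cluster, 4 passed in 1 day 4 library and 14 in 2. The closest after IGF2BP2 were in DENND4C at 3 nt, SPTBN1 at 9 nt and GP6 at 10 nt. Just outside the rule lay footprints on all 3 lists whose day 4 part was shortest, with 3, 6, 8 and 9 nt of a day 4 peak. The shortest of these, at chr17:8076869-8076907, had log2 folds of 8.40, 5.25 and 6.21 in the day 4 libraries. Leaving out the 21 left 272 footprints that passed in at least 1 day 4 library, 68 in all 3 and 13 without a cluster.

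The footprints that passed in all 3 day 4 libraries with the highest lowest fold lay in genes of varied roles. RAPGEF6, an exchange factor for Rap GTPases, had log2 folds of 4.87, 4.81 and 5.25 at day 4 at chr5:130884355-130884510, beside 5.32, 5.51 and 3.58 at day 0 and 6.91, 5.95 and 5.44 at day 8. DMD, which encodes dystrophin, had 4.70, 5.31 and 5.90 at day 4 at chrX:31191433-31191566, beside 6.45, 5.99 and 5.87 at day 0 and 5.30, 6.72 and 6.01 at day 8. In both, the day 4 libraries were enriched at least 4-fold by a wide margin, and the −log10 p was lowest in replicate 1, at 4.76 and 4.18.

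U2AF2, the splicing factor that recognises the polypyrimidine tract at 3' splice sites, had log2 folds of 7.00, 7.73 and 7.27 at day 0, 4.51, 6.04 and 5.25 at day 4 and 4.50, 3.29 and 5.77 at day 8 at chr19:56174642-56174727. GPR35, a G protein-coupled receptor, had 4.51, 7.01 and 5.14 at day 4 at chr2:241553250-241553534, with −log10 p of 3.60, 23.2 and 6.39. The remaining ones by this rule were GCNT2, a glycosyltransferase, with 4.70, 5.81 and 5.61 at day 4, and PRKCH, a protein kinase C, with 4.51, 5.42 and 5.25. Replicate 1 carried the weakest p of the 3 day 4 libraries in all 6.

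Strong footprints could still miss a day 4 library. Among footprints that passed in 1 or 2 day 4 libraries, that of ECPAS, a proteasome adaptor, ranked first by the lower of its day 0 and day 8 list folds. At chr9:114149381-114149612 its log2 folds were 8.71, 7.10 and 8.48 at day 0 and 7.20, 8.12 and 7.66 at day 8, and at day 4 it had no cluster in replicate 1, 5.63 in replicate 2 and 5.02 in replicate 3. GP6, the platelet collagen receptor gene, had 8.0, 7.06 and 7.35 at day 0 and 6.82, 6.64 and 7.24 at day 8 at chr19:55544358-55544401, and a day 4 cluster in replicate 2 alone, of 5.31. Day 4 list peaks lay 73 nt and 79 nt from these footprints. PKP4, an armadillo protein of cell junctions, had 7.34, 4.81 and 5.26 at day 0, 3.70, 4.72 and 4.02 at day 4 and 6.61, 5.80 and 6.93 at day 8 at chr2:159495492-159495596, and day 4 replicate 1 missed the p threshold with a −log10 p of 1.91.

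The 335 footprints lay in 256 loci, of which 203 held 1, 36 held 2, 12 held 3 and 5 held more. Of the 256, 58 also held a footprint with a day 4 list peak, and 122 had passing peaks in all 3 day 4 libraries. Neither count was made over all loci, so neither is read as a trait of these loci. Passing peaks were missing from all 3 day 4 libraries in 15 loci (5.86%), against 34.1% of all 3755 loci. Those 15 included loci in RYR2, with 2, and in PDLIM5, GAS6, CAPZB, DENND5A, DGKH, TNK2, TAB2, HIP1, DNAJB6, NLGN1 and ENTREP1, with 1 each. In 35 loci (13.7%) the passing peaks per 10000 were lower in each day 4 library than in any library of days 0 and 8, against 2.10% of all loci. The choice of footprints used this contrast, so nothing is read from the excess.

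After SORBS2, the loci richest in these footprints did not all look alike. SPTBN1 (a spectrin of the membrane skeleton) held 5, and its passing peaks per 10000 were 6.45, 7.88 and 8.42 at day 0, 6.60, 6.43 and 12.5 at day 4 and 22.2, 34.9 and 9.12 at day 8. As plain numbers they were 10, 10 and 11, then 2, 5 and 5, then 14, 13 and 10. The day 4 libraries were lower than those of day 0 in number but overlapped them once scaled to the passing peaks of each library.

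MICAL3, a flavin monooxygenase that acts on actin and vesicle traffic, held 4 footprints in each of 2 loci. In the locus at chr22:18275393-18295238 the values per 10000 were 6.45, 6.30 and 5.36 at day 0, 0.00, 3.86 and 2.5 at day 4 and 12.7, 21.5 and 6.38 at day 8, with the day 4 libraries below all others. In the locus at chr22:18355720-18362522 they were 12.3, 19.7 and 15.3, then 23.1, 9.0 and 22.5, then 44.3, 53.7 and 31.9, so that day 4 and day 0 overlapped once scaled. The plain numbers there were 19, 25 and 20, then 7, 7 and 9, then 28, 20 and 35, with the day 4 libraries below all others. The second locus also held 3 footprints of all 3 lists, and the first none. The second locus was higher on every day, with means per 10000 of 15.7 against 6.04 at day 0, 18.2 against 2.12 at day 4 and 43.3 against 13.5 at day 8. Footprints of all 3 lists hold a day 4 peak by definition, so nothing is read from the day 4 difference.

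ERBIN, an adaptor that binds the receptor ERBB2, held 4 footprints in a locus with 5.16, 6.30 and 6.12 passing peaks per 10000 at day 0, 0.00, 3.86 and 10.0 at day 4 and 6.33, 13.4 and 7.30 at day 8. On that scale the day 4 libraries reached from below to above those of day 0 and overlapped those of day 8. As plain numbers the passing peaks were 8, 8 and 8 at day 0 and 0, 3 and 4 at day 4, so that day 4 lay below day 0. In all 4 footprints of that locus each day 4 library had a cluster, and 3 passed in 2 libraries and 1 in 1; replicate 1 passed in none. A further 12 loci held 3 footprints each, among them COL13A1 (a transmembrane collagen), PICALM (a clathrin assembly protein), OGDH (a subunit of a citric acid cycle dehydrogenase complex), RBFOX2 (a splicing regulator) and the mitochondrial genome. In COL13A1 the day 4 libraries, with 29.7, 20.6 and 67.5 passing peaks per 10000, lay above those of day 0, with 8.38, 13.4 and 11.5. This order held only once scaled: the plain numbers were 9, 16 and 27 at day 4 and 13, 17 and 15 at day 0, which overlapped. The 3 mitochondrial footprints passed in 1, 1 and 2 day 4 libraries at log2 folds of at most 2.62.

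GAS6 and ESYT2 were looked at because earlier results of these data had marked them as low at day 4. GAS6 encodes the ligand of the TAM receptor kinases, and its footprint at chr13:114563884-114563981 had log2 folds of 5.97, 5.29 and 3.71 at day 0 and 6.86, 4.83 and 4.22 at day 8, with 1 day 4 cluster of 2.14 in replicate 2. The GAS6 locus held 20, 27 and 16 passing peaks at day 0, none in any day 4 library and 10, 9 and 15 at day 8, although 3, 4 and 10 clusters that did not pass were listed at day 4. ESYT2, a lipid transfer protein of membrane contact sites, had 5.25, 4.72 and 3.44 at day 0, 2.12, 2.72 and 3.44 at day 4 and 4.37, 5.31 and 5.33 at day 8 at chr7:158575093-158575183, and passed in no day 4 library. Its locus held 36, 33 and 28 passing peaks at day 0, 0, 1 and 1 at day 4 and 8, 11 and 9 at day 8. In each of these loci only 1 footprint was on the lists of both days, beside 8 in GAS6 and 21 in ESYT2 on the day 0 list alone.

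**Figure D5:**
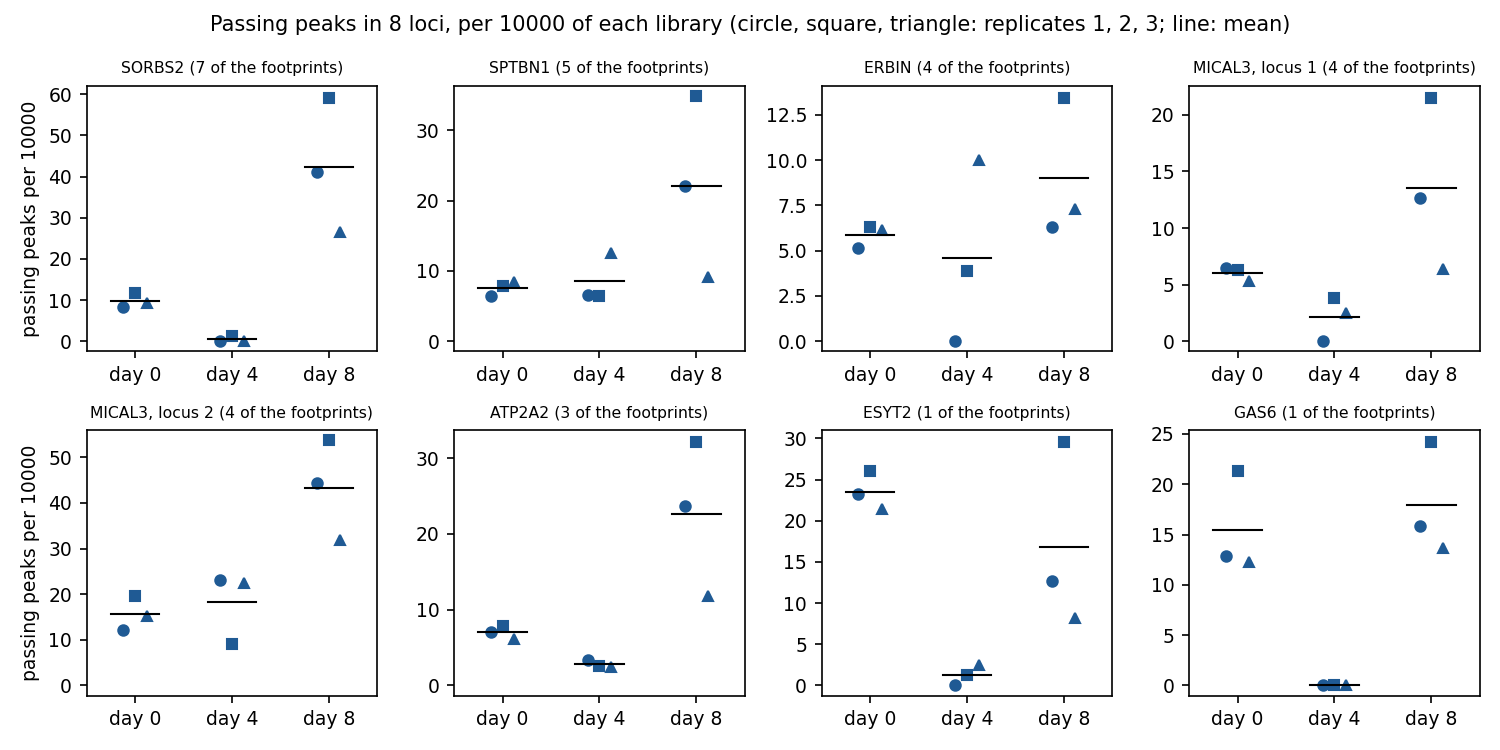
Passing peaks in 8 loci per 10000 passing peaks of each library (y axis, a scale of its own in each panel) at days 0, 4 and 8 (x axis). Points are libraries (circle, square and triangle for replicates 1, 2 and 3) and lines are means of 3. ATP2A2 was added after its values were seen. SORBS2 runs from 0.00 to 1.29 at day 4 against at least 8.38 on the other days, whereas in SPTBN1, ERBIN and the second MICAL3 locus the day 4 libraries overlap those of day 0. That overlap arises from the scaling, since as plain numbers the day 4 libraries lie below those of day 0 in these loci.

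Peaks beside the footprints, which the choice did not use directly, were counted as well. Passing peaks within 5 kb of a footprint of the set on its strand, overlapping no footprint of any list, made up 428, 489 and 398 per 10000 such peaks at day 0, 246, 243 and 405 at day 4 and 552, 1012 and 535 at day 8. The means were 438 ± 46.4, 298 ± 92.3 and 700 ± 270 (SD, n = 3 each), and day 4 overlapped day 0 through replicate 3. Day 8 replicate 2 carried much of the day 8 mean: without it, day 8 minus day 0 was 106 in place of 262, and day 4 minus day 8 was -245 in place of -402. The values also turned on the number of peaks taken. With equal numbers of the strongest peaks from each library, day 8 minus day 0 was -623 and day 4 minus day 0 was -1118, so that day 0 was highest. The peaks were also taken as a log2 ratio to those within 5 kb of footprints on all 3 lists. The total used for scaling divides out of this ratio, but the ratio still moved with the number of peaks taken. The values were -0.36, -0.61 and -0.85 at day 0, -1.05, -0.96 and -1.53 at day 4, and 0.31, 0.39 and 0.71 at day 8. The days did not overlap in this ratio, with day 4 lowest and day 8 highest. With equal numbers of peaks day 8 was still highest, and day 8 minus day 0 was 2.02 in place of 1.08. Day 4 minus day 0 was then -0.12 in place of -0.57, and those days overlapped. These peaks come from the same libraries and transcripts as the lists, so the values are a description with no test.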

How the data were processed

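The labels give 18 eCLIP samples, and replicate numbers came from their titles; the 9 inputs were not analysed singly here. Clusters were listed per IP library; for each day the 3 libraries were further merged by IDR (reproducibility ranking) at 4-fold enrichment, per the file headers. In both kinds of list, the authors deposited a log2 fold of IP over input and a −log10 p-value of it, capped at 400, on hg19. Clusters with a fold below input were not listed. Read trimming and alignment tools (STAR, cutadapt, SAMtools) appear in the submitters' processing notes with no version; the peak caller is not given in the sources used here. Depth per library is unknown, so the precision of a fold cannot be given.

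List peaks that overlapped or touched on a strand were joined into footprints. A cluster counted for a footprint if it overlapped it by at least 1 nt on the strand. The footprint's value in a library is the highest fold among such clusters that passed, or among all such clusters where none passed. Coordinates are 1-based on hg19. Python 3.11.15 with numpy 2.4.6, pandas 2.3.3 and scipy 1.17.1 was used, and the counting and the permutation tests were tested on simulated data. The members and lists were chosen with earlier results of these data known. The exact tests planned for flanking peaks between days, and for the share passing against the day 0 list alone, are not given, because list membership used the same libraries. Libraries of different days that share a number were not paired: of 9 such pairs, 2 had deviations correlated above 0.1, with a range of -0.15 to 0.28.

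Footprints named in the text were those without a day 4 cluster and with the highest list fold (6), those passing in all day 4 libraries with the highest lowest fold (6), those passing in 1 or 2 with the highest list fold (4), the richest loci, those of SORBS2, ESYT2 and GAS6, and those nearest a day 4 list peak. The sixth place among the richest loci was tied between 12, of which some are named. Of these, 1 without a day 4 cluster is not reported here. The rest of the 16 without a day 4 cluster, and VCL, PDLIM5, RYR2 and ATP2A2 in detail, were added after their values were seen. An hg19 annotation was not used here, so exon, intron and UTR are not given and the pathway lists could not be counted. Gene names come from general knowledge of hg19 gene positions, a choice made after the values were seen, for 93 footprints in 47 loci. All 38 genes lay on the same chromosome in the RefSeq table of GRCh38, and all 35 with a listed strand on the same strand.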

Additional observations from a re-analysis of the deposited data

How the results depend on the processing

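The number of footprints on the lists of days 0 and 8 but not 4 ran from 305 to 352 over 5 other ways of joining or thresholding the list peaks. The number that passed in at least 1 day 4 library ran from 223 of 335, without day 4 replicate 2, to 304 of 352, with only overlapping peaks joined. Equal numbers of peaks from each library gave 232 of 335 (69.3%), in place of 290 (86.6%). With the number of peaks made equal in all libraries, 42 of the footprints passed in all 3 day 4 libraries, where the other planned settings with 3 libraries gave 57 to 86. Leaving out 1 day 4 library gave 72 to 195 passing in all that were left, with 195 without replicate 1, and 20 to 34 without a cluster, with 34 without replicate 2 and 30 without replicate 3. Joining list peaks within 20 nt left 12 of 312 footprints without a cluster, and within 50 nt 11 of 305, in place of 16 of 335. The difference from the day 0 list alone ran from 27.6 to 39.5 percentage points. With equal peak numbers the flanking peaks of day 4 minus day 0 came to -1118 per 10000 in place of -139.97, and those of day 8 minus day 0 to -623 in place of 262, so the order of days 0 and 8 turned; the cause was not tested. The log2 ratio to flanks of all 3 lists kept its order of days in each of its 14 alternatives per pair of days. With equal peak numbers it was -0.12 for day 4 minus day 0, -2.14 for day 4 minus day 8 and 2.02 for day 8 minus day 0, in place of -0.57, -1.65 and 1.08, and days 0 and 4 overlapped there and at 1 kb. With a replicate block the mean differences are the same by construction, at -139.97 per 10000 and -0.57 for day 4 minus day 0; within numbers 1, 2 and 3 these were -182, -245 and 7.01 per 10000, and -0.69, -0.35 and -0.68 for the ratio. The planned permutation within numbers was not run, since the footprints were chosen by that contrast. The weighting by day 0 fold, the exclusion of footprints near day 4 list peaks and the ratio at equal peak numbers were chosen after seeing the data. Day 4 replicate 1 limits the count passing in all 3 day 4 libraries; without it 286 passed in at least 1 and 20 had no cluster.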

Other observations

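The authors' folds took few distinct values in the library with the fewest passing clusters. In day 4 replicate 1 the 212 footprints with a cluster had 52 distinct log2 folds, and 24 of them shared the value 3.29, with a −log10 p from 1.37 to 3.63. In day 4 replicates 2 and 3, 298 and 288 footprints had 107 and 105 distinct folds, and in the day 0 libraries 335 footprints had 171 to 181. In day 4 replicate 1, 13 footprints had a log2 fold of 4.02 with a −log10 p from 2.46, below the threshold, and 19 had 4.29 with a −log10 p from 3.03, above it.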
